A study of Mus musculus with 11 samples.

Results

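The circadian clock genes considered here were 10 of the 27179 genes counted in each library: Clock, Arntl (also called Bmal1), Npas2, Per1, Per2, Per3, Cry1, Cry2, Dbp and Tef. They were chosen by name, as core genes of the clock and of its PAR-domain output, and Clock and Tef are also candidates of the shRNA screen for which these libraries were made. All 10 passed the filter of over 0.5 CPM (counts scaled by library size) in at least 3 libraries. RNA-seq had been performed on 11 libraries of mouse mammary epithelial cells. Of these, 9 came from freshly sorted cells of wild-type FVB/N virgin females aged 8 weeks, with 3 libraries each of MaSC/basal cells (CD24+CD29hi, enriched for mammary stem cells), LP cells (CD24+CD29loCD61+, luminal progenitor-enriched) and ML cells (CD24+CD29loCD61-, mature luminal-enriched). A further library came from mammospheres grown for 1 week from MaSC/basal cells of the same strain, genotype and age in medium with growth factors, insulin and hydrocortisone, and the last from Comma Dβ, an established mammary epithelial line of Balb/c origin. The gates enrich for cell types and do not purify them. MaSC/basal replicate 1 was submitted under a name that includes p53, but is wild type by its labels, and the mammosphere name may stand for more than 1 culture. No source used here says whether mice were pooled or at what hour tissue was collected. The study's methods describe 3 independent samples per sorted population but do not say what separated them. The p-values therefore measure only the spread between these libraries, which may be technical.

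The labels assign each library to 1 of 3 batches. Batch 1 held the mammospheres and replicate 1 of each sorted population, batch 2 held MaSC/basal replicates 2 and 3, LP replicate 2 and ML replicate 2, and batch 3 held LP and ML replicate 3 and Comma Dβ. Between 19958838 and 75795034 reads were counted on genes per library, and a count of 3 reads corresponded to 0.0399 to 0.160 CPM. Markers followed the labels. The summed CPM of the basal markers (Krt5, Krt14, Trp63, Acta2, Myh11 and Oxtr) was 15516 to 21725 in MaSC/basal libraries against 70.3 to 358 in luminal libraries, and that of the luminal markers (Krt8, Krt18, Krt19, Cdh1 and Epcam) was 12763 to 16399 in luminal against 1402 to 1692 in MaSC/basal libraries. The LP markers (Itgb3, Kit, Elf5, Aldh1a3 and Cd14) summed to 2646, 2463 and 2149 CPM in LP replicates 1, 2 and 3. In ML replicates 1, 2 and 3 they summed to 611, 1273 and 447 CPM. The ML markers (Esr1, Pgr, Foxa1, Prlr and Ly6a) summed to 5636, 3774 and 6302 CPM in ML and to 686, 1124 and 1658 CPM in LP. The part of this variation in the clock gene values was not tested. In Comma Dβ the luminal markers summed to 211 CPM and the basal markers to 1513 CPM. Immune and adipocyte markers each summed to at most 36.7 CPM in all 11 libraries, and fibroblast markers to 71.4 to 610 CPM in the sorted ones. Endothelial markers summed to 43.2 to 89.4 CPM in MaSC/basal against 7.27 to 37.4 CPM in luminal libraries, with 0 of the 5 undetected in any library. Of these, 4 were called higher in MaSC/basal than in LP and 2 than in ML, and their part in the clock gene values was not tested.

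The mammalian clock is a transcriptional feedback loop. CLOCK, or its relative NPAS2, pairs with BMAL1 (the product of Arntl) and activates genes through E-boxes. Among those genes are the Per and Cry genes, whose products return to the nucleus and repress the pair. DBP and TEF are PAR-domain bZIP activators that bind D-boxes, and a second loop of ROR activators and REV-ERB repressors acts on Arntl through ROR elements. The loop runs in most tissues, including the mammary gland, so that the level of a clock transcript in a tissue also depends on the hour at which the tissue is taken.

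Promoter sequences of the members were examined for these elements, since the related genes below differed in level from one another within a cell type. Windows of 250 bases before to 50 after a RefSeq start site (GRCm38.p6) were held for 9 members, all but Per2, and numbered 14 for these 9. Per1, Arntl and Npas2 are annotated from chr11:69095108, chr7:113178471 and chr1:39193702, and Clock, on the minus strand, from chr5:76305603. These starts lie upstream of the windows of their genes and were not searched. Both strands were searched for the E-box (CACGTG), the E'-box (CACGTT, or AACGTG on the other strand), the D-box (TTATGTAA or TTATGCAA) and the ROR element (TAGGTCA or TGGGTCA). The E-box was found in windows of 3 members (Cry1, Per1 and Tef), the E'-box in those of 2 (Cry1 and Cry2), the D-box in those of 2 (Per1 and Per3) and the ROR element in that of 1 (Arntl). Of all 27025 genes with such windows, 8.09% had the E-box in at least 1 window, 5.44% the E'-box, 1.98% the D-box and 7.35% the ROR element, and of all 32851 windows 7.15%, 4.68%, 1.66% and 6.45%, in the same order. The stretches with a match are given 5′ to 3′ on the strand of the gene, with the element in capitals. These are letter matches, not sites shown to be bound.

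The Cry1 stretch holds an E'-box and then an E-box, 60 bases before the start site, and the Cry2 stretch an E'-box alone, 166 bases before it:
Cry1, chr10:85185090-85185149, minus strand: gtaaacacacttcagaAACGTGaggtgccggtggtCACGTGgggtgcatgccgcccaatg
Cry2, chr2:92434200-92434259, minus strand: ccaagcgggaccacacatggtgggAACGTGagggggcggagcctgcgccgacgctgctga

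Per1 had an E-box 166 bases and a D-box 24 bases before the start site of its more upstream window. Per3 had 2 D-boxes, 205 and 158 bases before its start site:
Per1 E-box, chr11:69098759-69098813, plus strand: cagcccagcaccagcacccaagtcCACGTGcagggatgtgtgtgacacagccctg
Per1 D-box, chr11:69098899-69098948, plus strand: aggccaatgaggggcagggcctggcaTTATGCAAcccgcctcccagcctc
Per3, chr4:151044801-151044885, minus strand: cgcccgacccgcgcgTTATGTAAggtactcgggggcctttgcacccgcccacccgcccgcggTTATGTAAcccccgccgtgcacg

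Both start sites held for Tef had an E-box upstream, and the ROR element of Arntl lay 30 bases after the start site of its second window:
Tef, first start site, chr15:81802518-81802572, plus strand: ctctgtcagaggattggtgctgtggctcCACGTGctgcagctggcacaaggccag
Tef, second start site, chr15:81811249-81811303, plus strand: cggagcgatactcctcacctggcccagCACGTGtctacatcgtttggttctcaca
Arntl, chr7:113207533-113207557, plus strand: gcagaaagTAGGTCAgggacggagg

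To compare the populations, edgeR's quasi-likelihood test was applied to the raw counts as a model of 5 sample-type means, and a gene was called at a Benjamini-Hochberg adjusted p (FDR) under 0.05 over 15422 genes. MaSC/basal cells had little Npas2 and less Per2 and Cry2 than both luminal populations, whereas Per1 and Cry1 were lower than in LP without a call against ML. Against the mean of LP and ML, 6 of the 10 genes (Npas2, Per1, Per2, Cry1, Cry2 and Dbp) were lower in MaSC/basal and 0 were higher. Calls are common between these populations. Of all genes, 61.7% were called in this comparison, 30.5% lower and 31.2% higher in MaSC/basal. The members' median difference was -0.97 on the log2 scale, against -0.01 for all genes tested.

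Between MaSC/basal and LP, 6 members were called, 1 higher and 5 lower in MaSC/basal (background 57.4% of all genes, 29.4% higher and 28% lower). Between MaSC/basal and ML, 6 were called, 1 higher and 5 lower (background 58.7%, 28.9% higher and 29.7% lower). Between LP and ML, 7 were called, 4 higher and 3 lower in LP (background 31.8%, 14.3% higher and 17.5% lower). The shares of members called in the comparisons with MaSC/basal were thus near those of all genes. The 3 libraries of one population did not overlap in CPM with the 3 of the other for 7 members in MaSC/basal against LP (all genes 63.9%), for 6 in MaSC/basal against ML (65.5%) and for 8 in LP against ML (47.9%). The 3 comparisons share libraries and are not independent.

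**Figure D1:**
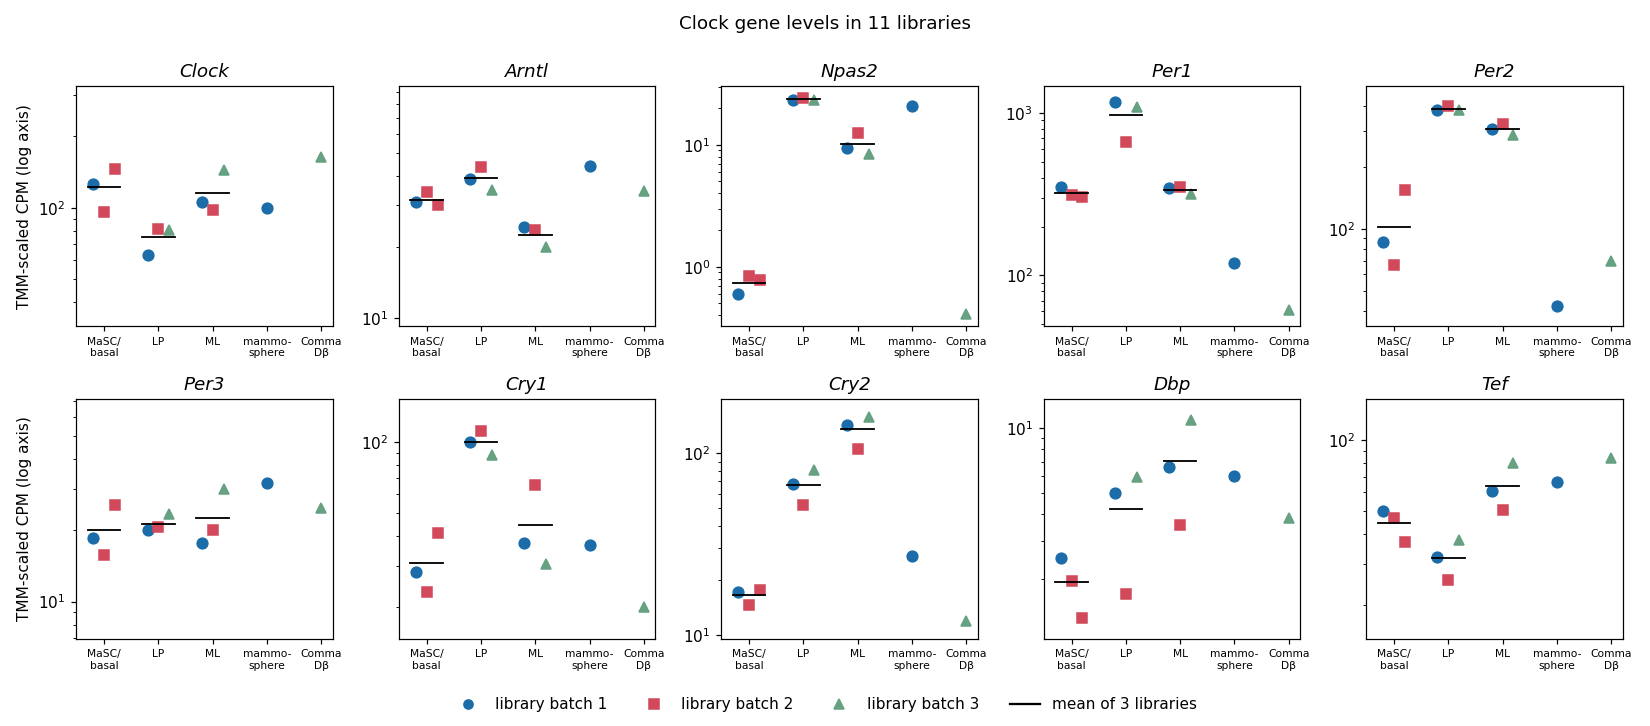
TMM-scaled CPM (log axis) of the 10 clock genes in 11 libraries, grouped by cell type on the horizontal axis, with symbols by library batch and lines at the mean of 3 libraries. The axes of all panels differ. Npas2 lies between 0.594 and 0.837 CPM in MaSC/basal and at 8.39 CPM or more in LP, ML and mammospheres, whereas Per3 overlaps in the 3 sorted populations.

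**Figure D2:**
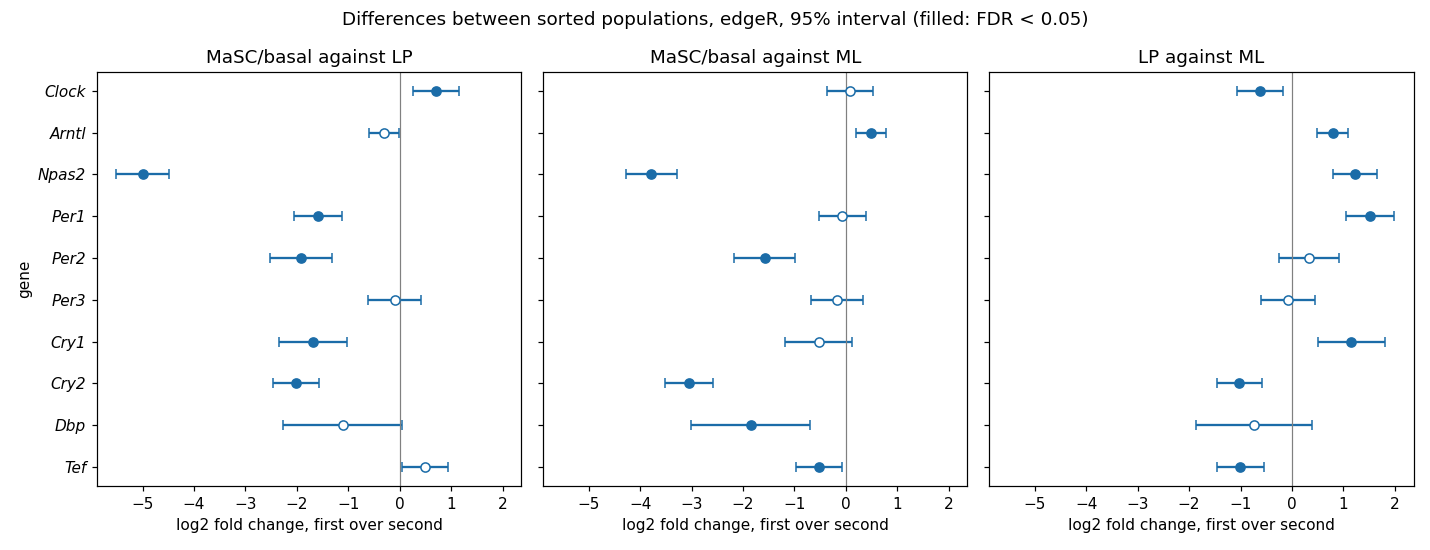
Log2 fold changes of the 10 clock genes in the 3 comparisons of sorted populations, as the first population over the second, with 95% intervals from edgeR. Filled points mark FDR under 0.05. Npas2 has the lowest value, -5.0, in MaSC/basal against LP.

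Of the activators, Clock (chr5:76209868-76305603) was lower in LP than in both other populations. It measured 126, 95.7 and 146 CPM in MaSC/basal replicates 1, 2 and 3. In ML replicates 1, 2 and 3 it measured 106, 97.8 and 144 CPM, and in LP 63.1, 81.6 and 80.9 CPM. All LP libraries were below all MaSC/basal and ML libraries, and the MaSC/basal and ML libraries overlapped. Clock was 1.63-fold higher in MaSC/basal than in LP (log2 0.71, SE 0.20, FDR 0.0123) and 1.54-fold higher in ML than in LP (FDR 0.0392). MaSC/basal and ML differed by 0.08 on the log2 scale (95% interval -0.36 to 0.53). The call against LP was lost without LP replicate 1 (FDR 0.0520), and that between LP and ML in 6 of the 9 fits that left out a library, those without LP replicate 1, 2 or 3, ML replicate 1 or 3, or MaSC/basal replicate 1 (FDR 0.0581 to 0.138). With library batch as a replicate block, Clock was also called against the mean of LP and ML (log2 0.51, FDR 0.0324, against 0.39 and 0.0669 without), as it was without MaSC/basal replicate 2 (FDR 0.0217) or ML replicate 3 (FDR 0.0236).

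Arntl (chr7:113178471-113314126), which encodes the partner of both CLOCK and NPAS2, was highest in LP and lowest in ML among the sorted cells. It measured 38.8, 43.7 and 34.8 CPM in LP replicates 1, 2 and 3. MaSC/basal libraries had 31.1, 34.1 and 29.96 CPM, and ML libraries 24.2, 23.5 and 20.1 CPM. No libraries of any pair of populations overlapped, though the gap between LP and MaSC/basal was narrow. Arntl was 1.73-fold higher in LP than in ML (log2 0.79, SE 0.14, FDR 0.00262) and 1.40-fold higher in MaSC/basal than in ML (FDR 0.0101). The difference between MaSC/basal and LP was -0.30 on the log2 scale without a call (FDR 0.0766) and was called with the replicate block (-0.39, FDR 0.0229).

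Npas2 (chr1:39193702-39363240), the relative of Clock that can pair with BMAL1 in its place, differed most. It measured 23.2, 24.1 and 23.3 CPM in LP replicates 1, 2 and 3 and 9.42, 12.4 and 8.39 CPM in ML. In MaSC/basal it measured 0.594, 0.837 and 0.773 CPM, which rests on 35, 42 and 41 reads. The 3 populations did not overlap. Npas2 was 32.0-fold lower in MaSC/basal than in LP (log2 -5.0, SE 0.23, FDR 2.1e-07), 13.7-fold lower than in ML (FDR 5.3e-07), and 2.33-fold higher in LP than in ML (FDR 0.00180). The same order held in batches 1 and 2, and LP exceeded ML in batch 3, which has no MaSC/basal library. The log2 difference between MaSC/basal and LP, after adding 0.5 to each CPM, was -4.44 in batch 1 and -4.24 in batch 2, and that between LP and ML lay between 0.93 and 1.42 in the 3 batches. Krt18, a luminal keratin, was present at 79.0 to 140 CPM in the MaSC/basal libraries and at 3065 to 3935 CPM in the luminal ones, and its part in the low Npas2 count was not tested. In these bulk libraries, fewer cells that express a gene and less RNA per cell cannot be told apart.

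Of the repressors, Per1 (chr11:69095108-69109965) was the most abundant member per length in the 3 sorted populations, with mean levels per kb of exon of 68.5 CPM (MaSC/basal), 207 CPM (LP) and 71.9 CPM (ML). It measured 1167, 666 and 1083 CPM in LP replicates 1, 2 and 3. ML libraries had 347, 351 and 315 CPM and MaSC/basal libraries 351, 312 and 303 CPM. All LP libraries lay above the others, with LP replicate 2 the lowest of them, and ML and MaSC/basal overlapped. Per1 was 3.02-fold lower in MaSC/basal than in LP (log2 -1.59, SE 0.21, FDR 1.1e-04) and 2.88-fold higher in LP than in ML (FDR 0.00111), while MaSC/basal and ML differed by -0.07 on the log2 scale (95% interval -0.52 to 0.38). Within batches, LP exceeded ML by 1.75, 0.92 and 1.78 on the log2 scale in batches 1, 2 and 3.

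Per1 is itself induced by stimuli and by glucocorticoids, and both kinds of genes varied among these libraries. The summed level of 10 immediate early genes, which respond to stress and dissociation, was 32883, 14322 and 30044 CPM in LP replicates 1, 2 and 3. In ML it was 23451, 15701 and 23950 CPM, and in MaSC/basal 12950, 20489 and 6949 CPM. Among LP libraries it was lowest in the one with the least Per1, while in MaSC/basal and in ML the library with the highest sum was not the one with the most Per1. The 6 glucocorticoid-responsive genes (Tsc22d3, Fkbp5, Sgk1, Zbtb16, Klf9 and Errfi1) summed to 5439, 4001 and 5313 CPM in LP replicates 1, 2 and 3. In MaSC/basal they summed to 2730, 3529 and 3392 CPM, and in ML to 2644, 2406 and 2974 CPM. Among LP libraries this sum too was lowest in the one with the least Per1. In MaSC/basal and in ML it was lowest in the library with the most Per1. The part of either group of genes in the Per1 values was not tested.

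Per2 (chr1:91415977-91459351) separated luminal from basal cells rather than LP from the rest. It measured 382, 398 and 382 CPM in LP replicates 1, 2 and 3, and 308, 326 and 287 CPM in ML. MaSC/basal libraries had 86.1, 66.4 and 155.4 CPM, with replicate 3 above the others although it shares batch 2 with replicate 2. Per2 was 3.77-fold lower in MaSC/basal than in LP (log2 -1.91, SE 0.27, FDR 1.7e-04) and 2.99-fold lower than in ML (FDR 5.4e-04). LP and ML libraries did not overlap, but their difference of 0.33 on the log2 scale was not called (95% interval -0.25 to 0.91).

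Per3 (chr4:150997018-151044707) was called in none of the comparisons. Its level was 19.96, 20.7 and 23.4 CPM in LP replicates 1, 2 and 3, 17.7, 20.04 and 29.9 CPM in ML, and 18.5, 15.7 and 25.6 CPM in MaSC/basal. The populations overlapped throughout. The log2 difference between LP and ML was -0.08 (95% interval -0.59 to 0.44), and that between MaSC/basal and LP -0.09 (-0.61 to 0.42). The signs of these small differences changed with the scaling or the libraries used.

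The cryptochromes, which repress CLOCK and BMAL1 together with the PER proteins, were both lower in MaSC/basal cells than in LP. They went opposite ways between the luminal populations. Cry1 (chr10:85131700-85185054) measured 99.8, 111 and 87.6 CPM in LP replicates 1, 2 and 3. ML libraries had 37.3, 65.6 and 30.4 CPM and MaSC/basal libraries 28.3, 23.2 and 41.3 CPM. LP stood apart from both, and ML and MaSC/basal overlapped. Cry1 was 3.21-fold lower in MaSC/basal than in LP (log2 -1.68, SE 0.30, FDR 7.8e-04) and 2.23-fold higher in LP than in ML (log2 1.16, FDR 0.0150), the latter not without ML replicate 1 (FDR 0.0623). Between MaSC/basal and ML the log2 difference was -0.53 without a call (FDR 0.145), but -0.69 with a call with the replicate block (FDR 0.0422) and -0.74 without ML replicate 3 (FDR 0.0490).

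Cry2 (chr2:92403646-92434085) measured 144, 106 and 159 CPM in ML replicates 1, 2 and 3. LP libraries had 67.9, 52.1 and 80.9 CPM and MaSC/basal libraries 17.3, 14.6 and 17.7 CPM. The 3 populations were ordered without overlap. Cry2 was 8.24-fold lower in MaSC/basal than in ML (log2 -3.04, SE 0.21, FDR 1.4e-06), 4.04-fold lower than in LP (FDR 1.8e-05) and 2.04-fold lower in LP than in ML (FDR 0.00431). Within batches the difference between LP and ML was -1.08, -1.02 and -0.97 on the log2 scale. An antisense transcript, D930015M05Rik, overlaps 295 of the 6320 annotated exon bases of Cry2 in GENCODE, and the counts of the pair cannot be told apart there without strand.

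Of the PAR-domain activators, Tef (chr15:81802673-81826863) was lower in LP than in ML. It measured 32.0, 25.6 and 37.7 CPM in LP replicates 1, 2 and 3. ML libraries had 60.9, 50.7 and 79.8 CPM and MaSC/basal libraries 49.8, 46.6 and 37.0 CPM. ML lay above both other populations, and one MaSC/basal library lay below the highest LP library. Tef was 2.01-fold lower in LP than in ML (log2 -1.01, SE 0.21, FDR 0.00565). The 1.43-fold lower level in MaSC/basal than in ML stood at the threshold (log2 -0.52, FDR 0.0492). That call was lost with the replicate block (-0.30, FDR 0.0767) and in 6 of the 9 fits that left out a library, without LP replicate 1, ML replicate 1 or 3, or any 1 of the MaSC/basal replicates (log2 down to -0.33 without ML replicate 3, FDR 0.0621 to 0.189). Against LP the difference was 0.49 (FDR 0.0621), and it was called with the replicate block (0.70, FDR 0.00208) and without ML replicate 2 or 3, LP replicate 3 or MaSC/basal replicate 3 (FDR 0.0324 to 0.0462).

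Dbp (chr7:45705100-45710203), an output gene of the clock with large daily changes in many tissues, was the member with the fewest reads in LP, on 91 to 142 reads per library. It measured 5.01, 1.70 and 5.98 CPM in LP replicates 1, 2 and 3. ML libraries had 6.62, 3.56 and 10.9 CPM and MaSC/basal libraries 2.51, 1.95 and 1.32 CPM. ML lay above MaSC/basal, and LP overlapped with both. Dbp was 3.61-fold lower in MaSC/basal than in ML (log2 -1.85, SE 0.52, FDR 0.0110) and 2.79-fold lower than the mean of LP and ML (FDR 0.0189), the latter not without MaSC/basal replicate 2 (FDR 0.0600) or 3 (FDR 0.0790). The log2 difference from LP was -1.11 (95% interval -2.26 to 0.04, FDR 0.0908) and was called without LP replicate 2 (-1.52, FDR 0.0181). LP against ML gave -0.74 (FDR 0.291), called with the replicate block (-0.76, FDR 0.0448). Exons of Sphk2 on the other strand overlap 539 of the 2993 annotated exon bases of Dbp. Sphk2 measured 14 to 36.7 CPM and Dbp was between 0.0835 and 0.405 of it in the 11 libraries, and the part of shared reads in the Dbp values was not tested.

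The relation between related genes within a library does not depend on the scaling between libraries. Per kb of exon, the level of Clock was 63.9 to 119 times that of Npas2 in MaSC/basal, 4.40 to 9.59 times in ML and 1.52 to 1.94 times in LP. The level of Cry1 was 2.30 to 3.38 times that of Cry2 in MaSC/basal and 1.57 to 3.08 times in LP, but 0.276 to 0.896 times in ML, so that Cry2 was the more abundant cryptochrome in ML alone of the 3 sorted populations. Per1 exceeded Per2 in all 11 libraries, by 1.34 to 1.40 times in ML, 2.08 to 3.80 times in LP and 2.42 to 5.83 times in MaSC/basal. Arntl was 1.11 to 1.58 times the level of Clock in LP and 0.358 to 0.917 times in ML and MaSC/basal.

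**Figure D3:**
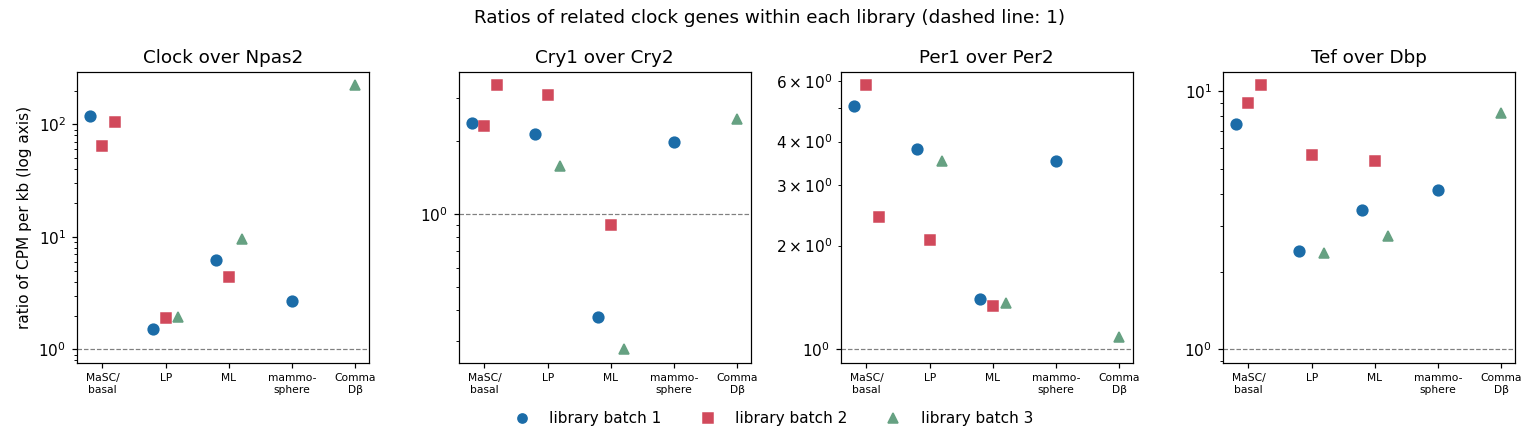
Ratios of CPM per kb of exon (log axis) for 4 pairs of related clock genes in each library, grouped by cell type and with symbols by library batch. The dashed line marks equal levels. Cry1 over Cry2 lies below 1 in the 3 ML libraries, and Clock over Npas2 is between 1.52 and 2.68 in LP and mammospheres and at least 63.9 in MaSC/basal and Comma Dβ.

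To see how far the members varied between library batches, a batch term was added to the population means of the 9 sorted libraries and tested jointly. No member was called with edgeR (0 of 10, background 0.44% of 15229 genes), nor in the single comparisons of batch 2 with batch 1 (background 0.276%), batch 3 with batch 1 (0.184%) or batch 3 with batch 2 (0.0131%). At an unadjusted p under 0.05 there were 3 members, Dbp (FDR 0.101), Tef (FDR 0.165) and Cry2 (FDR 0.236), against 15.5% of all genes. The likelihood ratio test of DESeq2 called 2 of them, Dbp (FDR 2.0e-04) and Tef (FDR 0.0282), and limma voom called 0. That DESeq2 test called 944 genes in all, against 67 with edgeR and 63 with limma voom.

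In both LP and ML the lowest library for each of Dbp, Tef and Cry2 was replicate 2, of batch 2, and the highest was replicate 3, of batch 3. These genes were singled out by the joint test on the same libraries, so that their order only describes that result. Batch 3 exceeded batch 2 by 1.58 on the log2 scale for Dbp (SE 0.28, FDR 0.0918), by 0.59 for Tef (FDR 0.122) and by 0.54 for Cry2 (FDR 0.162), and was lower by -0.68 for Cry1 (FDR 0.309). These 4 were the members with an unadjusted p under 0.05 in that comparison (background 15.9%). The comparison of batch 3 with batch 2 rests on LP and ML, since MaSC/basal has no library in batch 3. The members' median absolute difference was 0.36, against 0.24 for all genes. LP and ML markers also differed between these batches. In batches 2 and 3, ML markers summed to 3774 and 6302 CPM in ML and to 1124 and 1658 CPM in LP. LP markers summed to 1273 and 447 CPM in ML and to 2463 and 2149 CPM in LP, in the same order. Batch 3 was also the shallowest, so that depth, cell mix, animals and the hour of collection cannot be told apart here. By the labels, batches 2 and 3 used the same version of the library kit and batch 1 an earlier one. Among the 21 other clock genes tested, Wee1 (FDR 0.224) and Nr1d2 (FDR 0.255) had an unadjusted p under 0.05 in the joint test of edgeR, against 15.5% of all genes.

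**Figure D4:**
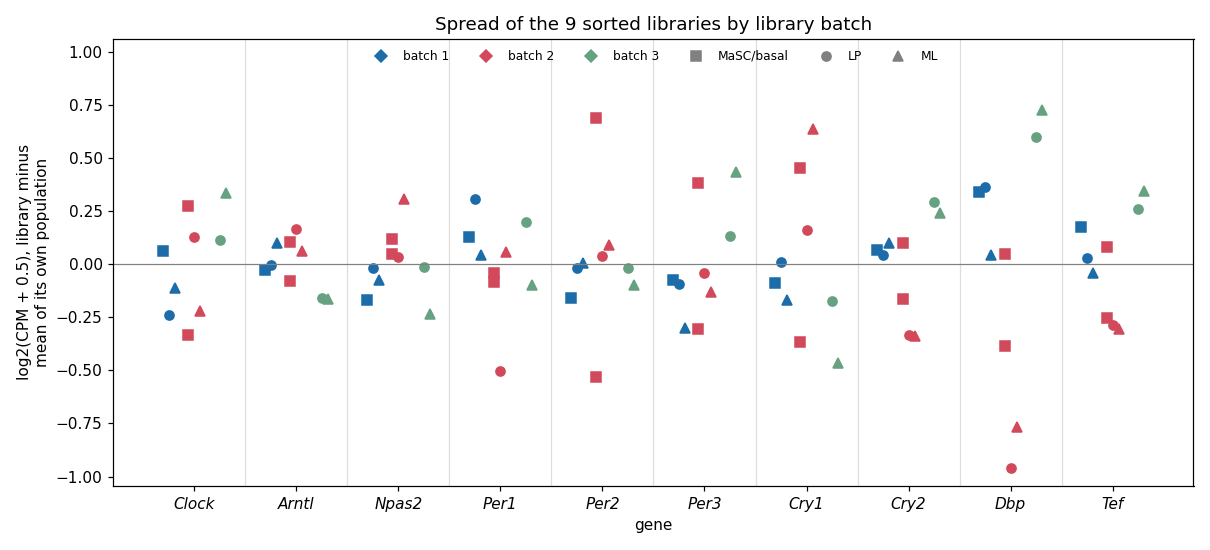
Log2 of CPM plus 0.5 in each of the 9 sorted libraries, minus the mean of the library's own population, for the 10 clock genes. Colours mark library batches and shapes mark populations. LP and ML libraries of batch 2 lie lowest and those of batch 3 highest for Cry2, Dbp and Tef, and the points of Dbp span the widest range.

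The cultured cells are 1 library each, so their values carry no test and are set beside the range of the 3 MaSC/basal libraries. In the mammosphere library 6 members were above that range, 2 below and 2 within it, and 82.8% of all genes lay outside their range. Npas2 measured 20.7 CPM on 918 reads, 28.2-fold above the MaSC/basal mean and between the ML and LP levels. Dbp was 3.11-fold, Cry2 1.63-fold, Per3 1.58-fold, Tef 1.48-fold and Arntl 1.39-fold above the mean. Per1, at 119 CPM, was 0.370 times and Per2, at 42.1 CPM, 0.410 times the mean, both below every sorted library. Clock (99.3 CPM) and Cry1 (36.8 CPM) lay within the MaSC/basal range, Cry1 above it when only library size was used (42.7 CPM against at most 39.9 CPM).

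In mammospheres the immediate early genes summed to 970 CPM, below all sorted libraries, and the glucocorticoid-responsive genes to 1337 CPM, although Fkbp5 (178 CPM) and Tsc22d3 (122 CPM) were above their 18.5 to 21.2 and 24.5 to 32.6 CPM in MaSC/basal and the medium contained hydrocortisone. Luminal markers summed to 3162 CPM, LP markers to 673 CPM and fibroblast markers to 1675 CPM, against 1402 to 1692, 103 to 124 and 217 to 351 CPM in MaSC/basal. The part of these in the mammosphere values was not tested.

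In the Comma Dβ library 4 members were above the MaSC/basal range (Clock, Arntl, Dbp and Tef), 4 below (Npas2, Per1, Cry1 and Cry2) and 2 within it, and 84.3% of all genes lay outside. Clock had its highest value of the 11 libraries there, 163 CPM, as did Tef, with 83.9 CPM. Arntl was 34.4 CPM, 1.08-fold the mean, and fell within the range with DESeq2-type size factors. Per1, at 61.1 CPM, was 0.190 times the MaSC/basal mean. Npas2 rested on 12 reads (0.408 CPM, exact 95% Poisson interval 0.211 to 0.714, which covers counting error only). Cry1 (20.1 CPM) and Cry2 (11.9 CPM) were below the range with TMM scaling and within it when only library size was used. Dbp was 3.85 CPM, Per2 69.9 CPM and Per3 24.7 CPM, the last above the range when only library size was used.

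The same comparisons were made for 22 other genes of the clock, in 4 lists, of which 21 passed the filter. In MaSC/basal against LP 12 were called, 3 higher and 9 lower. In MaSC/basal against ML 11 were called, 5 higher and 6 lower, and in LP against ML 8, with 5 higher in LP and 3 in ML. These counts, and those of each list below, stand beside the backgrounds of 57.4%, 58.7% and 31.8% given above. In the comparisons with MaSC/basal the shares called of all 21 were near those of all genes. Their median log2 differences were -0.39, -0.33 and 0.36, against -0.01 for all genes in each comparison.

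All 3 tested genes of the ROR and REV-ERB list were called lower in MaSC/basal than in LP, as were 28% of all genes. Rora, an activator at ROR elements, had a log2 difference of -2.48 (FDR 9.6e-06) from 44.4, 34.6 and 48.2 CPM in LP replicates 1, 2 and 3 to 7.19, 6.0 and 9.53 CPM in MaSC/basal. Nr1d1, which encodes the repressor REV-ERBα and is a direct target of the loop, measured 224, 117 and 157 CPM in LP replicates 1, 2 and 3. MaSC/basal libraries had 64.8, 53.9 and 80.4 CPM and ML libraries 143, 104 and 124 CPM. It was lower in MaSC/basal than in LP (log2 -1.32, FDR 0.00104) and than in ML (-0.90, FDR 0.00913). Thra on the other strand overlaps 263 of its 3077 exon bases. Nr1d2, its paralog, was lower in MaSC/basal than in LP (-1.22, FDR 3.8e-04) and higher in LP than in ML (0.78, FDR 0.0134).

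Of the 7 bHLH, bZIP and related genes, 3 were called between MaSC/basal and LP (2 higher and 1 lower in MaSC/basal), 4 between MaSC/basal and ML (3 higher and 1 lower) and 2 between LP and ML (1 each way). Hlf, the third PAR-domain factor, measured 53.8, 48.0 and 54.5 CPM in LP replicates 1, 2 and 3, 10.8, 20.7 and 12.4 CPM in ML, and 9.28, 9.77 and 11.6 CPM in MaSC/basal. It was higher in LP than in MaSC/basal by 2.35 and than in ML by 1.82 on the log2 scale (FDR 1.7e-05 and 9.1e-04), whereas Tef was lower in LP than in ML. Hlf reached 133 CPM in mammospheres. Nfil3, a repressor at D-boxes, went the other way, higher in MaSC/basal than in LP (log2 1.92, FDR 4.6e-05) and lower in LP than in ML (-1.32, FDR 0.00229). Timeless, a replication fork protein related to a fly clock gene, was higher in MaSC/basal than in LP (1.66, FDR 1.8e-04) and ML (1.07, FDR 0.00245). Ciart, a clock repressor, was called only against ML (1.11, FDR 0.0265), not without ML replicate 1 or 2 or MaSC/basal replicate 2 (0.64 without the last), and the same libraries decided the call of Nfil3 against ML (0.60, FDR 0.0329, and 0.38 without MaSC/basal replicate 2). Arntl2, the paralog of Arntl, stayed between 1.47 and 5.57 CPM in all libraries but Comma Dβ (13.9 CPM) and was called in none of the comparisons.

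Of the 6 genes of clock protein turnover, 4 were called between MaSC/basal and LP (1 higher and 3 lower in MaSC/basal), 3 between MaSC/basal and ML (1 higher and 2 lower) and 2 between LP and ML (both lower in LP). The gene counted as higher in both was Fbxl21, an F-box protein, at 1.39 to 1.77 CPM in MaSC/basal against 0.239 to 0.459 CPM in LP and ML, there on 7 to 18 reads per library. It was under 0.5 CPM in all LP and ML libraries and passed the filter only through MaSC/basal and the cultured libraries, so that its difference is a description. Csnk1e, a kinase of PER proteins, was lower in MaSC/basal than in LP (-0.91, FDR 1.5e-04) and ML (-1.04, FDR 5.4e-05). Fbxw11, an F-box protein that acts on PER proteins, was lower in MaSC/basal than in LP (-0.63, FDR 0.00107) and ML (-1.56, FDR 2.5e-06), and lower in LP than in ML (-0.93, FDR 9.0e-04). Gsk3b, a kinase with several clock proteins among its substrates, was lower in MaSC/basal than in LP (-0.84, FDR 0.00186).

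Of the 5 output genes, 2 were called between MaSC/basal and LP (both lower in MaSC/basal), 3 between MaSC/basal and ML (1 higher and 2 lower) and 2 between LP and ML (both higher in LP). Usp2, a deubiquitinase, was lower in MaSC/basal than in LP (log2 -2.27, FDR 4.7e-06) and ML (-1.71, FDR 2.4e-05). Its call between LP and ML (0.56, FDR 0.0358) was lost without LP replicate 2 or 3, ML replicate 1 or 3 or MaSC/basal replicate 1 (FDR 0.0524 to 0.142). Wee1, a cell cycle kinase, was lower in MaSC/basal than in LP (-1.86, FDR 0.00105) and ML (-1.06, FDR 0.0201), the latter not without MaSC/basal replicate 2 (FDR 0.0831) or ML replicate 3 (FDR 0.0605). Its level in LP replicates 1, 2 and 3, 185, 85.9 and 240 CPM, was lowest in batch 2, as were those of Dbp, Tef and Cry2. With edgeR none of these genes was called between batches. Nampt, an enzyme of NAD synthesis, was higher in MaSC/basal (1.15, FDR 2.2e-05) and in LP (0.87, FDR 0.00114) than in ML.

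**Figure D5:**
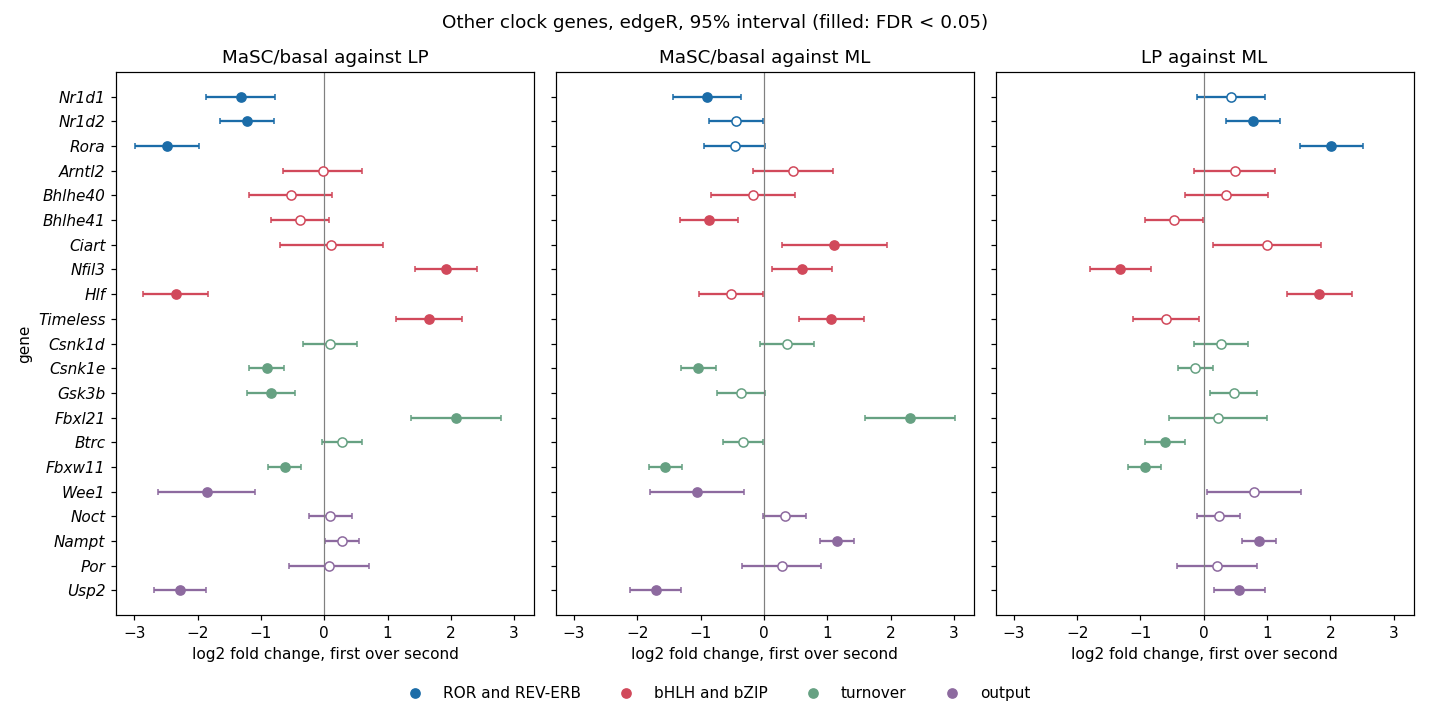
Log2 fold changes of the 21 other clock genes that passed the filter, as the first population over the second, with 95% intervals from edgeR and colours by list. Filled points mark FDR under 0.05. The ROR and REV-ERB genes lie below 0 in MaSC/basal against LP, and Nfil3 and Timeless lie above 0. Fbxl21, also above 0, passed the filter only through MaSC/basal and the cultured libraries.

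Finally, the genes whose pattern over the 11 libraries was most like that of Clock or Dbp were listed by Pearson r of log2 CPM, as a description. For Clock they were Evi5 (r = 0.963), Gsap (0.926), Sgk3 (0.914), Tpmt (0.913) and Cfap69 (0.911). For Dbp they were Pbx2 (r = 0.962), Ttc5 (0.945), Thap3 (0.935), Vps39 (0.928) and Mllt10 (0.925). The points share libraries of 5 cell types, so that a gene that differs between these types in the same order has a high r.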

How the data were processed

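The authors aligned single-end reads to mm10 (GRCm38) with Rsubread, counted them per Entrez gene with featureCounts and deposited 1 table of raw counts per library, without normalization. The handling of reads shared between genes, and whether strand was used, is not given in the sources used here. The submitters' processing notes also name CASAVA 1.8.0, edgeR 3.6.2 and limma 3.20.5.

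Symbols and coordinates came from RefSeq (GRCm38.p6, 25275 genes) and GENCODE (18 genes), and promoter sequences from RefSeq. Exon overlaps were read from GENCODE. Besides those given above, genes on the other strand overlapped exons of Arntl, Tef, Rora, Timeless, Csnk1e and Usp2. These overlaps were 33, 193, 82, 111, 267 and 200 bases long. edgeR 4.0.16 (R 4.3.3) was used for the counts. Genes over 0.5 CPM in at least 3 libraries were kept, TMM factors (0.863 to 1.21) computed, and population means fitted to 11 libraries, or population and batch to the 9 sorted ones. SE is the log2 fold change divided by the square root of F. Within-batch values are log2 of CPM plus 0.5, and r used a prior count of 2. FDR of other tests is from limma voom (3.58.1) or DESeq2 (1.42.0).

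Members and gene lists were chosen with earlier results of these data known. All members were described, and from each list of other clock genes up to 4 called genes with the largest change were named, with Arntl2 and Nr1d1 always. Some genes of these lists are not reported here. On simulated counts for MaSC/basal against LP (15178 genes), 98 of 100 genes changed by a log2 of 2 were recovered and 41 of 100 changed by 1, with 7 false calls. Between batches (15101 genes) these were 98, 46 and 15. Only these genes, all above a minimum level, were changed in the simulation, whereas 57.4% of all genes were called between MaSC/basal and LP. The recovered shares therefore do not give the sensitivity of the tests on the real counts.

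The labels give the library batch, which was left out of the main model and used as the replicate block among the alternatives. Deviations from population means correlated at -0.15 to 0.58 for 9 pairs of one batch and -0.51 to 0.11 for 18 pairs of different batches. Such deviations cancel out over the libraries of a population, so that the ranges are not independent. No 2 libraries of one sorted population held duplicate counts. Alternatives were other scalings, filters and tests, the sorted libraries alone, the replicate block and leaving out each replicate.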

Additional observations from a re-analysis of the deposited data

Results flagged for a closer look

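For 2 members the cultured libraries lay on opposite sides of the MaSC/basal range. Npas2 was above it in mammospheres and below it in Comma Dβ, a log2 difference of 5.66 between the cultured libraries. For Cry2 the difference was 1.19, from 27.04 CPM in the first to 11.9 CPM in the second. With 1 library each, these differences were not tested. With library size alone as the scaling, Cry2 in Comma Dβ lay within the MaSC/basal range, and Npas2 remained outside it in both.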

How the results depend on the processing

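The number of clock genes called moved by less than 1.5 times under all alternatives, except that the DESeq2 likelihood ratio test called 2 members between batches where edgeR called 0. Over all genes that test called 944 and edgeR 67. Leaving out 1 library gave 5 to 7 members in MaSC/basal against LP, 5 to 6 against ML, 5 to 7 in LP against ML and 5 to 7 against the mean of LP and ML, and 0 between batches. Over all genes these fits called 7522 to 8841, 7900 to 8944, 3083 to 5205 and 8133 to 9373 genes, and 0 to 114 between batches. With the replicate block the counts of members were 8, 6, 8 and 7. Of all genes, 8999, 9078, 5638 and 9462 were then called, against 8853, 9046, 4899 and 9517 in the main model. Beyond the changes given with each gene, the block changed no other call of a member or of a named gene of the other lists. Signs changed only for differences near 0 that were not called. Per3 in MaSC/basal against LP (-0.09) became 0.046 with library size alone and 0.026 with the block, and ranged from -0.30 to 0.053 when 1 library was left out. Tef against the mean of LP and ML (-0.01) became 0.047 with library size alone, 0.019 with limma voom and 0.20 with the block, and ranged from -0.091 to 0.12. Per3 against that mean (-0.13) became 0.0041 with the block and ranged from -0.34 to 0.026. Without 1 library, Clock in MaSC/basal against ML ranged from -0.045 to 0.27, Per3 there from -0.38 to 0.075, and Per3 in LP against ML from -0.22 to 0.17. The cause was not tested. Library size alone moved the median of all genes by 0.15 in MaSC/basal against LP and by -0.17 in LP against ML, and 29.4% of calls were then higher in LP against 45.0% with TMM. Under it Tef was called against LP (0.64), Tef against ML and Usp2 in LP against ML were not, and 8 folds of cultured libraries moved by more than the spread of MaSC/basal libraries, none changing sign. limma voom lost Dbp against the mean of LP and ML (FDR 0.0574) and Tef against ML (FDR 0.0505) and called Tef against LP (FDR 0.0482). DESeq2-type size factors lost Tef against ML (FDR 0.0547), and DESeq2 called Dbp against LP (FDR 0.0488). Depth limits Npas2 in Comma Dβ (12 reads) and MaSC/basal (35 in the lowest library) and Dbp (70), and of the other named genes Fbxl21 (7) and Ciart (27).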
